A study of Mus musculus with 2 samples.

Results

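The kainate receptor genes Grik1, Grik2, Grik3, Grik4 and Grik5 and the genes of their auxiliary subunits, Neto1 and Neto2, were followed through polyadenylated RNA of mouse hippocampus. The members were taken by gene symbol, with every transcript annotated to them, and came to 7 of 55536 annotated genes and 40 of 141864 annotated transcripts. The series holds 1 group of 2 libraries, labelled biological replicates 1 and 2, from mice aged 6 months. The animals are described as C57BL/6 males in one label, as strain B6NCrl in another, while the sex field reads not collected. Each library was started from 20 ng of RNA, and no allele or treatment is labelled. The libraries have separate tissue samples and 1 shared donor identifier, so the labels do not settle whether they came from separate animals. There is no second condition, and the data describe the level of each gene, the forms it was read in, and the differences between the libraries and between 2 quantification programs.

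Kainate receptors are glutamate-gated cation channels built from 4 subunits. The products of Grik1, Grik2 and Grik3, named GluK1 to GluK3, can form channels on their own, whereas GluK4 and GluK5 bind glutamate with high affinity and need a GluK1 to GluK3 partner to reach the surface as channels. Neto1 and Neto2 are single-pass membrane proteins that bind these receptors and slow their gating. In the hippocampus, kainate receptors are best known at the mossy fibre synapses of dentate granule cells onto CA3 pyramidal cells, and in interneurons.

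Several members are annotated with alternative coding ends, starts or inserts, and the stretches that distinguish the forms with the most RNA are shown here because the results below turn on them. They come from the GENCODE M21 transcripts, run 5′ to 3′ on the minus strand of mm10, and have the distinguishing coding bases in capitals and up to 18 neighbouring coding bases in lower case. In Grik2 the short transcript Grik2-210 leaves the shared exons for a coding end of 22 codons with its stop codon at chr10:49496095-49496160. Grik2-202, the full-length form with the most RNA, ends in 55 codons at chr10:49101108-49101272, and Grik2-204 ends in 16 codons at chr10:49105018-49105065.
Grik2-210: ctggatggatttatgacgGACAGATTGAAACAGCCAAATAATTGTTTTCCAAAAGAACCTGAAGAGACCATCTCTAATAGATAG
Grik2-202: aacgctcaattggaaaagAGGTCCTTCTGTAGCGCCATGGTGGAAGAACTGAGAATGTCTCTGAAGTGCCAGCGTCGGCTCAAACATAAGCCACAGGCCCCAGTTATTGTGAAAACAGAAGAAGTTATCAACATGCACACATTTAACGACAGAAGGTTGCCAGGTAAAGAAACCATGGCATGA
Grik2-204: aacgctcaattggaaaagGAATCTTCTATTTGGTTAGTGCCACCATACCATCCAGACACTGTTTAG
In Grik1, an exon of 45 bases at chr16:87955289-87955333 adds 15 codons to Grik1-211, in the region that codes for the extracellular N-terminal domain, and an exon of 87 bases at chr16:87896809-87896895 adds 29 codons to Grik1-202 in the region that codes for the intracellular tail.
Grik1-211: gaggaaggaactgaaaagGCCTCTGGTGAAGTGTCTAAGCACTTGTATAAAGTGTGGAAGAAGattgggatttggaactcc
Grik1-202: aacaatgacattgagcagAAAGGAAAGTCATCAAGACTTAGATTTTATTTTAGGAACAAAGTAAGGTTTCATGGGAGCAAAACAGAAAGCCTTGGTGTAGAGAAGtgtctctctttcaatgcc
Neto2 has alternative coding starts, in Neto2-201 at chr8:85690835-85690973 and in Neto2-205 at chr8:85700641-85700674. Neto2-205 also has a longer coding exon, which is not printed.
Neto2-201: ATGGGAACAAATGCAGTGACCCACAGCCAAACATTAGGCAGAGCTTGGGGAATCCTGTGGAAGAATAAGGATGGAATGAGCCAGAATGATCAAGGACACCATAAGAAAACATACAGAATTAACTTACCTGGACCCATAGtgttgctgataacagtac
Neto2-205: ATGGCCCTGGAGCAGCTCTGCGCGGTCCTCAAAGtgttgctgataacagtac

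The genes lie on 7 different chromosomes of the mm10 assembly: Grik1 on the minus strand at chr16:87895900-88290265, Grik2 on the minus strand at chr10:49094833-49788766, and Grik3 on the plus strand at chr4:125490700-125714173. Grik4 is on the minus strand at chr9:42518135-42944493 and Grik5 on the minus strand at chr7:25009849-25072346. Neto1 is on the plus strand at chr18:86394952-86506718 and Neto2 on the minus strand at chr8:85636588-85700924. In coding sequence, the pairs among Grik1, Grik2 and Grik3 were 71.2% to 72.4% identical and Grik4 and Grik5 were 72.3% identical. Pairs that cross these sets were 59.7% to 64.1% identical, and Neto1 and Neto2 were 67.7% identical. No transcript of a member shared more than 17 stretches of 31 bases with another member gene.

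The libraries held 38921671 and 39499357 expected reads in replicates 1 and 2, of which the 7 genes took 6622 and 7249.67. All 5 markers of CA1 pyramidal cells, all 5 of CA3 pyramidal cells, all 6 of dentate granule cells and all 8 of GABAergic interneurons reached at least 1 TPM in both libraries. So did all 4 markers of thalamus and all 4 of neocortex, so this minimum does not tell hippocampus from its neighbours. The share of all genes that reach it is not given here. TPM is a transcript level scaled for length and depth. Replicate 1 also held 15227 TPM of 4 choroid plexus markers, against 127 TPM in replicate 2, and all 4 were past 2-fold. In bulk tissue, fewer cells of a type and less RNA per cell cannot be told apart, and this holds for every level given here.

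On gene TPM, Neto1 and Grik2 were the most abundant members, followed by Grik4 and Grik5, and Neto2, Grik1 and Grik3 lay lowest. Grik2, which encodes the principal GluK2 subunit, had 13.2 and 13.1 TPM in replicates 1 and 2 (13.1 ± 0.0707, SD, n = 2). Grik1, which encodes GluK1, the subunit known from interneurons, had 2.11 and 2.27 TPM (2.19 ± 0.113). Grik3, which encodes GluK3, a subunit of low glutamate sensitivity, had 1.35 and 1.99 TPM (1.67 ± 0.453). Among the 3 genes whose products can form channels on their own, Grik2 therefore held most of the RNA in both libraries. Grik4, which encodes GluK4, a subunit enriched in CA3, had 10.5 and 9.55 TPM (mean 10.04 ± 0.686). Grik5, which encodes the widespread GluK5, had 4.58 and 5.63 TPM (5.11 ± 0.742). Neto1 had 13.7 and 15.2 TPM (14.5 ± 1.08), and Neto2 had 2.33 and 2.39 TPM (2.36 ± 0.0424). Neto1 thus exceeded Neto2 by a ratio of 6.13 ± 0.348 on gene TPM.

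**Figure D1:**
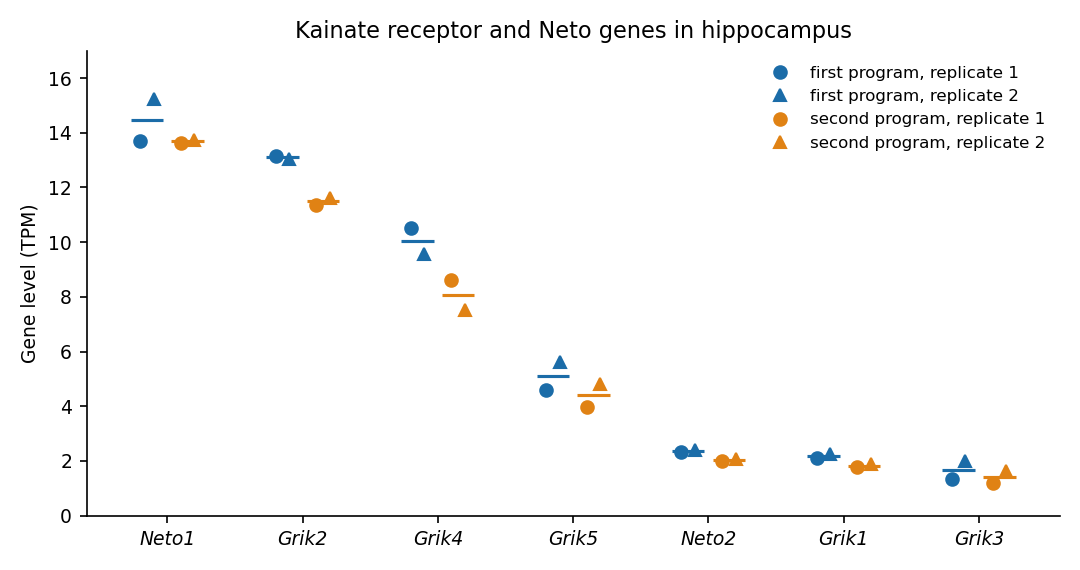
Gene level in TPM of the 7 genes, ordered by mean, in replicate 1 (circles) and replicate 2 (triangles), from the first program (blue) and the second program (orange). Horizontal bars are means of 2 libraries; Neto1, Grik2 and Grik4 stand above Grik5, and the other 3 genes lie at or below 2.39 TPM.

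Not all neighbours in this order were separated. The files give lower and upper bounds for each gene's TPM, at a level they do not state. For Neto1 the bounds were 11.7 to 15.6 TPM in replicate 1 and 13.3 to 17.2 TPM in replicate 2. For Grik2 they were 12.4 to 15.0 TPM and 12.2 to 14.3 TPM, so those of Neto1 and Grik2 overlapped in both libraries. Grik4, at 9.48 to 10.7 TPM and 8.62 to 9.81 TPM, lay below the bounds of Grik2 in both. Grik5, at 3.99 to 5.43 TPM and 5.27 to 6.56 TPM, was separated from the genes above and below it. The bounds of Neto2 and Grik1 overlapped in both libraries, and those of Grik3 were clear of Grik1 in replicate 1 but met them in replicate 2. Against the 17359 protein-coding genes with any TPM, whose median was 6.03 TPM, Neto1 stood at percentile 65.5, Grik2 at 64.0 and Grik4 at 59.3. Grik5 stood at 47.1, Neto2 at 35.4, Grik1 at 34.5 and Grik3 at 31.2, so 3 members lay above the median coding gene and 4 below it.

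Read by transcript, the level of Grik2 was made up in near equal parts of a short form and of the full-length forms. A transcript is called full-length here where its annotated coding sequence is complete and at least 80% as long as the longest of its gene. Grik2-210, with 8 exons and 338 codons, had 6.31 TPM in replicate 1 (bounds 5.38 to 7.03) and 6.83 TPM in replicate 2 (bounds 5.90 to 7.52). It shares 951 of its 1017 coding bases, stop codon included, with Grik2-202 and then ends in the stretch printed above. As background, that coding sequence stops within the N-terminal domain, ahead of the membrane-spanning segments of the channel. Grik2-210 held 50.2% ± 3.11 of Grik2 TPM (SD, n = 2), against 51.0% ± 3.33 by the second program. In expected counts, which are not divided by length, 371.93 and 412.46 reads of replicates 1 and 2 fell to it, a share of 29.6% and 33.0% of Grik2. Of its 2055 stretches of 31 bases, 720 were in no other annotated transcript.

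The full-length transcripts of Grik2, 5 in number, together had 6.59 TPM in replicate 1 and 5.63 TPM in replicate 2. The form of 908 codons, known as GluK2a, whose end binds PDZ-domain scaffolds, had 4.53 and 4.48 TPM and made up 74.2% ± 7.66 of the full-length TPM. It came from 2 transcripts, Grik2-202 with 3.57 and 3.50 TPM and Grik2-207, of 9427 bases, with 0.96 and 0.98 TPM. The form of 869 codons, known as GluK2b, had 1.87 and 0.96 TPM and made up 22.7% ± 8.01, and in the second program 23.8% ± 1.61. The form of 893 codons had 0.19 TPM in each library. On TPM, the order of the 3 ends was the same in both libraries. The TPM of the form of 869 codons was that of Grik2-204, whose bounds, 0.323 to 2.29 TPM in replicate 1 and 1.27e-05 to 1.32 TPM in replicate 2, overlapped. The form of 893 codons is Grik2-205, with bounds of 0.0201 to 0.559 TPM and 0.00843 to 0.664 TPM. These overlapped the bounds of Grik2-204 in each library, so the order of those ends is not settled.

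**Figure D2:**
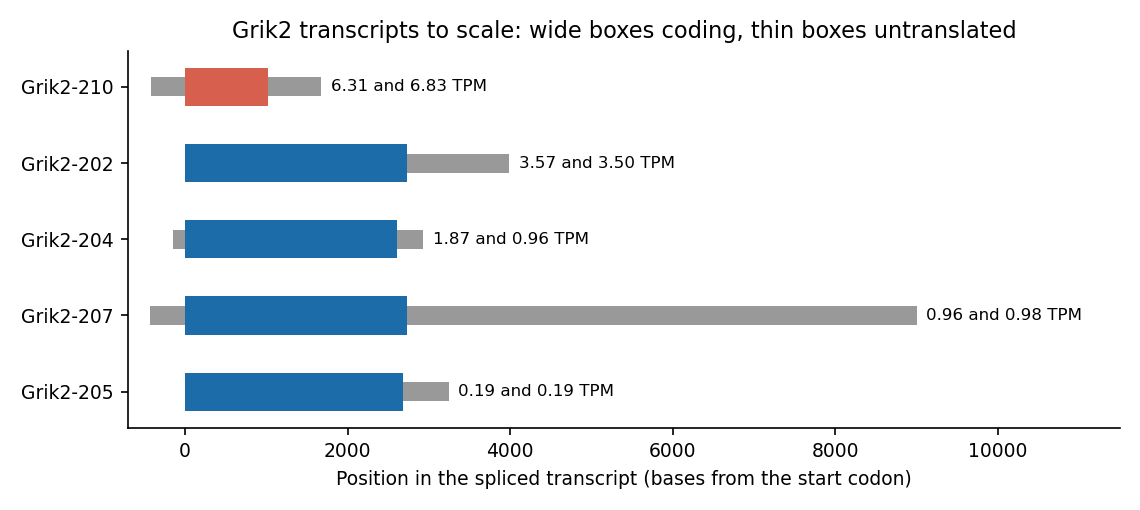
The 5 Grik2 transcripts with a complete coding sequence and at least 1% of Grik2 TPM, to scale in bases from the start codon, with wide boxes coding and thin boxes untranslated, and the TPM of replicates 1 and 2 at the right. Grik2-210 (red) ends after 1017 coding bases and had 6.31 and 6.83 TPM, above each full-length transcript (blue).

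A share of this size outside full-length transcripts was not rare in these tables, though it lay above that of the median coding gene. In Grik2 it was 49.9% in replicate 1 and 56.8% in replicate 2, so it reached 50% in both libraries in 0 of the 7 members. Over 12750 protein-coding genes, 19.2% had at least 50% of their TPM outside full-length transcripts in both libraries. In Neto1 the share was 20.7% and 21.9%, in Grik5 17.2% and 8.72%, and in Grik1 7.11% and 6.61%. By the second program the shares were larger for Neto1, at 31.1% and 27.3%, and for Grik5, at 24.9% and 17.7%. All TPM of Grik3, Grik4 and Neto2 was in full-length transcripts. For Grik3 and Grik4 the annotation fixes this, since it holds no other transcripts of them. The median share was 6.86% over the members, 14.1% over 11 genes of AMPA, NMDA and delta receptors, and 10.9% over all these coding genes.

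**Figure D3:**
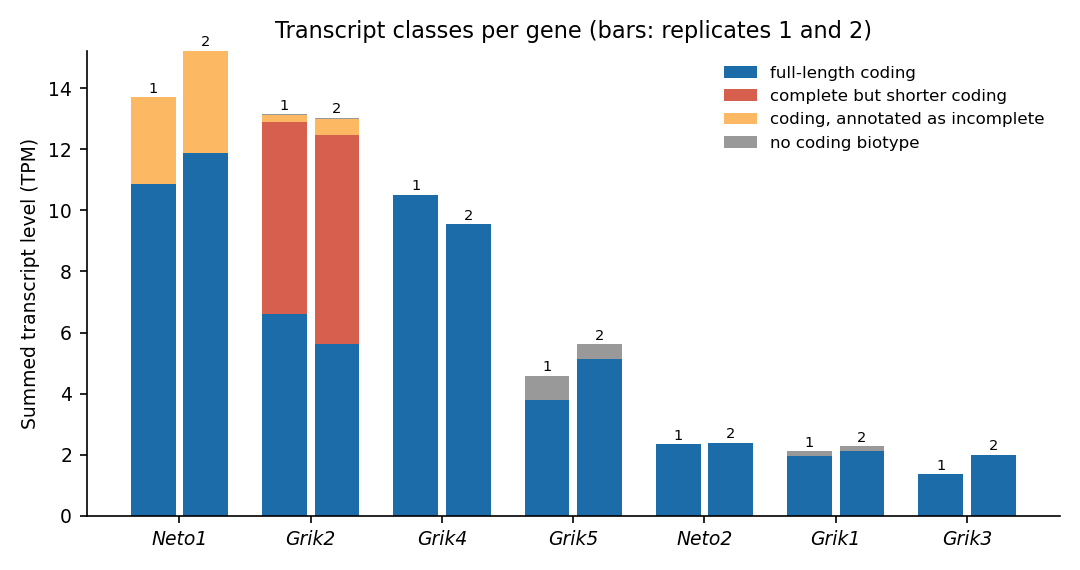
Summed transcript TPM of each gene in replicate 1 (left bar) and replicate 2 (right bar), split into full-length coding (blue), complete but shorter coding (red), coding annotated as incomplete (yellow) and no coding biotype (grey). The red part of Grik2 is Grik2-210, and the yellow part of Neto1, 2.83 and 3.34 TPM, is Neto1-202.

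Among the other channel-forming subunits, Grik3 has 1 annotated transcript, Grik3-201 with 919 codons, which carries its whole level. Grik1 was read mainly in 3 coding forms. Grik1-201, with 905 codons and neither insert, had 1.37 and 0.84 TPM. Grik1-211, with the 45-base exon, had 0.17 TPM from 15.83 reads in replicate 1 and 0.98 TPM from 93.72 reads in replicate 2. Forms with that exon, known as GluK1-1, made up 8.67% and 46.2% of full-length Grik1 TPM, and 7.24% and 37.1% in the second program. The bounds of Grik1-211 were 0.00835 to 0.544 TPM and 0.210 to 1.21 TPM and overlapped, so at 217 and 232 reads for the whole gene the share of this exon is not settled. Grik1-211 has 1 stretch of 31 bases of its own, and Grik1-201 and Grik1-202 have 0. Forms with the 87-base exon made up 21.4% and 14.2%, and 18.3% and 19.2% in the second program. Retained-intron transcripts were the rest: Grik1-208 had 0.05 and 0.15 TPM, and Grik1-205 had 0.10 TPM in replicate 1 and was listed at 0 in replicate 2. Grik1-210, another form with the 45-base exon, was listed at 0 in both libraries by the first program and had 0.201 TPM in replicate 2 in the second.

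Of the high-affinity subunits, Grik4 was read in 2 transcripts that encode the same 956 codons and differ outside them. Grik4-201 had 8.10 and 7.19 TPM and Grik4-202 had 2.42 and 2.36 TPM, so Grik4-201 held 76.1% ± 1.21 of the gene, against 71.5% ± 1.03 by the second program. Grik5-201, with 979 codons, had 3.79 and 5.13 TPM, and it was the single full-length form of Grik5. The remaining TPM of Grik5 was in transcripts with no coding biotype. Grik5-204, of 455 bases, had 0.55 TPM from 5.08 reads in replicate 1 and was listed at 0 in replicate 2. The second program gave this form 0.291 TPM in replicate 1 and also listed it at 0 in replicate 2. Of the transcripts annotated to nonsense-mediated decay, Grik5-207 was listed at 0 in replicate 1 and had 0.25 TPM in replicate 2, whereas the second program gave 0.396 and 0.382 TPM. Grik5-202 had 0.15 TPM in replicate 1 and was listed at 0 in replicate 2, whereas the second program gave 0.189 and 0.244 TPM. The bounds of each of these 3 forms overlapped between the libraries, so no difference is read from them, and Grik5-201 led in both libraries and both programs.

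For the auxiliary subunits, Neto1-201, with 533 codons, had 10.9 and 11.9 TPM. Neto1-202, an annotated fragment of 527 bases with an incomplete coding sequence, had 2.83 and 3.34 TPM, or 21.3% ± 0.9005 of Neto1 TPM. It drew 32.38 and 40.01 reads, or 1.18% and 1.30% of the reads of Neto1, against a length of 8352 bases for Neto1-201. The share of this fragment is thus large on the scale divided by length and small in reads. The remaining transcript, Neto1-203, was listed at 0 by the first program and had 1.12 and 0.111 TPM in the second. Neto2-201, with 553 codons, had 2.10 and 2.15 TPM and held 89.9% ± 0.152 of Neto2. Neto2-205, with 525 codons and the other start, had 0.24 and 0.22 TPM and held 9.73% ± 0.743. These transcripts also differ away from their starts. Neto2-201 has 5610 bases and reaches chr8:85636588, against 2932 bases and chr8:85639432 for Neto2-205. In the coding sequence, 1 exon of Neto2-205 is longer by 21 bases, or 7 codons, at chr8:85663387-85663407. Which of these differences the shares rest on was not tested.

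Counted over full-length transcripts alone, Grik4 and not Grik2 was the leading receptor subunit. Both of the 2 annotated transcripts of Grik4 are full-length, so Grik4 could lose no TPM on this scale. Of the 11 annotated transcripts of Grik2, 5 are full-length. Grik4 took 41.3% ± 3.07 of the full-length TPM of the 5 receptor genes, against 31.3% ± 2.67 of their gene TPM. Grik2 took 25.1% ± 2.95 of full-length TPM, against 40.8% ± 0.922 of gene TPM. Grik4 over Grik2 came to 1.596 in replicate 1 and 1.696 in replicate 2 on full-length TPM, and to 0.80 and 0.73 on gene TPM, so the order of the pair turned with the scale in both libraries. In the second program the full-length ratio was 1.51 ± 0.0117. Grik5 took 18.3% ± 3.78 of full-length TPM, Grik1 8.39% ± 0.414 and Grik3 6.86% ± 1.82. In expected counts Grik3 took 12.4% ± 2.87 of the receptor reads, against 5.19% ± 1.32 of gene TPM. Its transcript has 8973 bases, more than most others here, so more reads stand for the same level.

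**Figure D4:**
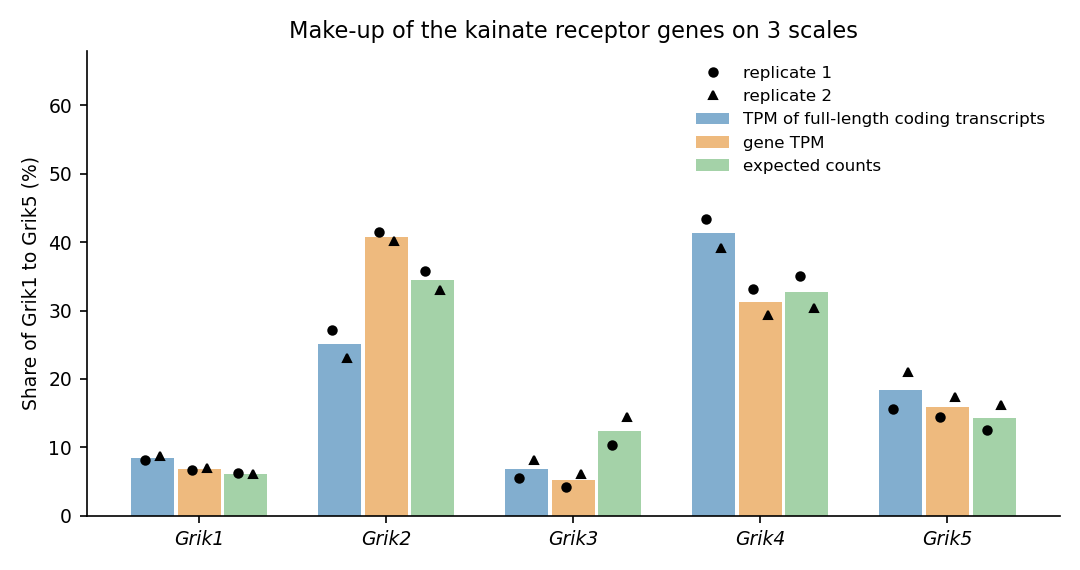
Share of each receptor gene in the sum of Grik1 to Grik5, in percent, on TPM of full-length coding transcripts (blue), gene TPM (orange) and expected counts (green). Bars are means, circles replicate 1 and triangles replicate 2; Grik4 leads on full-length TPM with 41.3% and Grik2 on gene TPM with 40.8%.

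The subunits that need a partner, Grik4 and Grik5, together made up 59.6% ± 0.712 of full-length receptor TPM and 47.2% ± 0.634 of gene TPM. Their sum was 14.3 and 14.7 full-length TPM, against 9.90 and 9.74 for Grik1, Grik2 and Grik3 together. The Neto genes came to 0.565 ± 0.0277 of the receptor genes on full-length TPM and 0.524 ± 0.0260 on gene TPM. In expected counts, which are not divided by length, this ratio was 0.901 ± 0.0152. Neto1 remained above Neto2 on full-length TPM, by a ratio of 4.81 ± 0.233. These are ratios of RNA and say nothing of the make-up of receptors at the membrane.

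Beside the other ionotropic glutamate receptors the kainate receptor genes were a small fraction. They made up 5.60% ± 0.222 of the full-length TPM of all 4 families and 4.88% ± 0.110 of the gene TPM. The kainate receptor sum was 32.1 ± 0.552 TPM, against 290 ± 29.8 TPM for the AMPA receptor genes and 328 ± 55.4 TPM for the NMDA receptor genes. On full-length TPM it was 24.3 ± 0.148, against 272 ± 27.9 for the AMPA receptor genes and 132 ± 13.5 for the NMDA receptor genes. The kainate receptor sum was thus below both on either scale, while the order of the AMPA and NMDA means turned with the scale. On gene TPM that order also differed between the libraries. The AMPA and NMDA sums were 311 and 289 TPM in replicate 1, and 269 and 367 TPM in replicate 2. The delta receptor genes lay lower, at 8.48 TPM in sum. Of the single genes in those families, the NMDA receptor subunit Grin2b had 174 and 223 TPM in replicates 1 and 2. The AMPA receptor subunit Gria2 had 198 and 172 TPM, so on TPM a different one of the pair led in each library. In expected counts Gria2 led in both, with 25656 and 23025 reads against 9750 and 10072 for Grin2b. Grin1, the obligatory NMDA receptor subunit, came next with 89.8 ± 13.4 TPM. The lowest was Grin3b with 0.05 and 0.09 TPM.

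Between the libraries, 3 of the 7 members differed beyond counting error and 0 differed by 2-fold. All 3 were higher in replicate 2, which was so for 23.6% of the 14078 genes tested, and 47.2% of those genes differed in one direction or the other. Grik3 had 362 expected reads in replicate 1 and 546 in replicate 2. Its log2 ratio, replicate 1 over replicate 2 on scaled counts, was -0.58 (exact binomial test, Benjamini-Hochberg adjusted p = 1.18e-08). Grik5 had 440 and 612 reads, with a log2 ratio of -0.47 (exact binomial test, adjusted p = 1.01e-06). Grik3 and Grik5 were therefore the members least alike in the libraries. Neto1 had 2750 and 3070.67 reads, with a log2 ratio of -0.15 (exact binomial test, adjusted p = 0.000230).

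The other 4 members had log2 ratios of -0.09 for Grik1, -0.06 for Neto2, 0.01 for Grik2 and 0.10 for Grik4, with adjusted p of 0.650, 0.670, 0.885 and 0.155 in the same exact test. For past 2-fold, the background was 2.41% of the genes tested. The median absolute log2 ratio was 0.10 over the members and 0.16 over all genes, so the median member differed no more than the median gene. Grik3, at -0.58, and Grik5, at -0.47, lay further out than the median gene. The coefficient of variation between the libraries over 16640 genes was 16.6%, which is beyond counting error, and with 1 group the p-values compare these libraries and no condition. Beside these ratios, the median log2 ratio was -0.27 for the 5 CA1 markers, 4 of which were higher in replicate 2 and 1 in replicate 1 beyond counting error and whose sum was 189 and 235 TPM, -0.09 for CA3 markers, -0.11 for dentate granule markers and -0.04 for interneuron markers. Other lists had medians on the side of replicate 1, at 0.24 for astrocyte markers, 0.20 for neocortex markers and 4.92 for choroid plexus markers. Of the 5 astrocyte markers, 4 were higher in replicate 1 beyond counting error and 1 in replicate 2. Of the 4 neocortex markers, 3 were higher in replicate 1 and 1 in replicate 2. The neocortex marker Rorb, with 21.1 and 7.30 TPM, was past 2-fold. The 4 thalamus markers had a median of -0.05 and did not share a side. Beyond counting error, Tcf7l2 was higher in replicate 1, with 95.9 and 58.6 TPM. Ntng1 was higher in replicate 2, with 7.33 and 11.5 TPM. The part of tissue make-up, choroid plexus included, in the ratios of Grik3 and Grik5 was not tested.

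**Figure D5:**
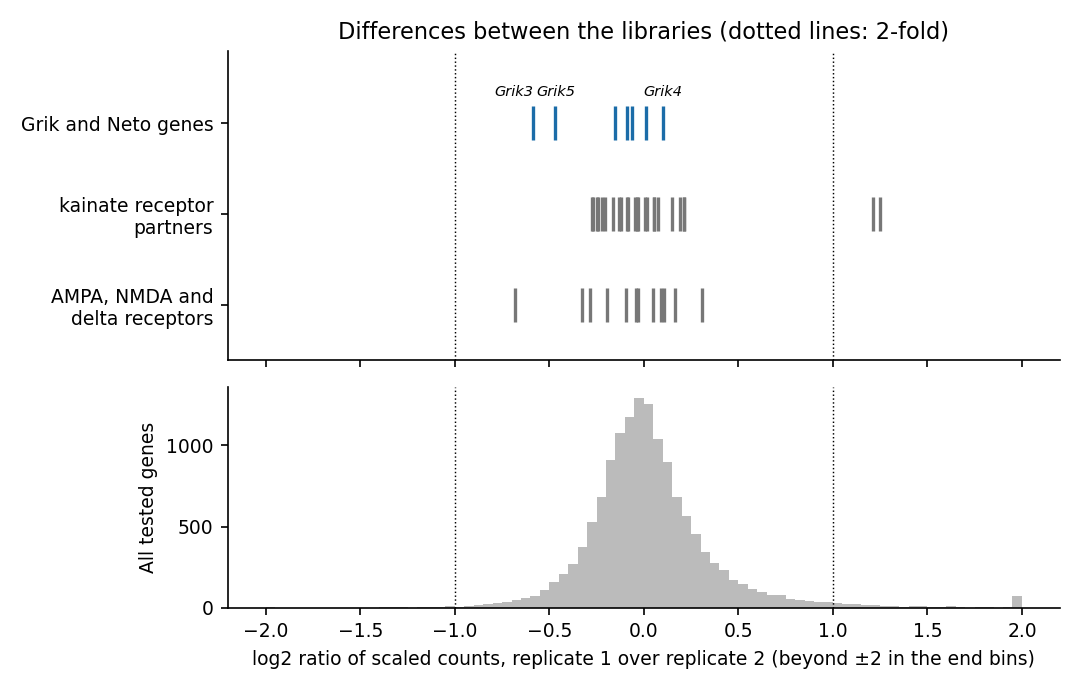
Log2 ratio of scaled counts, replicate 1 over replicate 2. Above, each mark is 1 gene of the members, of their listed partners or of the other ionotropic glutamate receptors; below, all 14078 tested genes, with ratios beyond the axis in the end bins. The members lie between -0.58 and 0.10, and 2 partners lie past the dotted 2-fold line on the side of replicate 1.

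The programs gave nearly the same levels for the members. All 7 had a higher TPM in the first program than in the second in both libraries, by log2 ratios of 0.01 to 0.28 in replicate 1 and 0.15 to 0.32 in replicate 2. Over all genes tested the medians were 0.21 and 0.25, and over the members 0.18 and 0.20, so the members shifted with the rest. The share of all genes with a higher TPM in the first program is not given here. Past 2-fold in both libraries were 0 of 7 members and 2.78% of 14348 genes. Grik4 had the largest ratio in both libraries, with 10.5 and 9.55 TPM in the first program against 8.60 and 7.53 TPM in the second. Neto1 had the smallest in both libraries, with 13.7 and 15.2 TPM against 13.6 and 13.7 TPM. On scaled counts in place of TPM, the ratios of the members had both signs. They ran from -0.06 to 0.05 in replicate 1 and from -0.05 to 0.05 in replicate 2.

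Proteins described as binding, modifying, trafficking or clustering kainate receptors formed a list of 26 genes, of which 25 matched a gene record. Of these, 24 reached at least 1 TPM in both libraries, and the median of the list was 23.0 TPM. The median protein-coding gene with any TPM had 6.03 TPM. The share of all genes that reach 1 TPM is not given here, so the count is not read as a trait of this list. Among the most abundant were the exocytosis protein Snap25 with 1640 ± 180 TPM and the 14-3-3 protein Ywhae with 720 and 656 TPM. The lowest was Grip2, a PDZ-domain scaffold, with 0.59 and 0.63 TPM. C1q-like proteins are secreted and are known to recruit kainate receptors at mossy fibre synapses. C1ql2, itself a dentate granule marker here, had 97.7 and 98.0 TPM, and C1ql3 had 22.7 and 27.0 TPM. Their neurexin partner Nrxn3 had 36.5 and 38.6 TPM.

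Between the libraries, 2 of the 25 partners were past 2-fold higher in replicate 1 and 0 higher in replicate 2, where 2.41% of all genes tested were past 2-fold in one direction or the other. Dpysl2, a cytoskeletal protein of axon growth, had 179 TPM in replicate 1 and 74.3 TPM in replicate 2, with a log2 ratio of 1.25. Cask, a synaptic scaffold, had 29.6 and 12.4 TPM, with a log2 ratio of 1.21. Beyond counting error, 7 partners were higher in replicate 1 and 7 in replicate 2, against 23.6% of all genes tested in each direction. The median log2 ratio of the list was -0.04, against -0.01 over all genes. Of the 12 other ionotropic glutamate receptor genes tested, 3 were higher in replicate 1 beyond counting error, 3 were higher in replicate 2 and 0 were past 2-fold.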

How the data were processed

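Polyadenylated RNA from 2 hippocampus libraries was analysed from the tables the authors deposited. Per the file headers, the gene tables hold expected counts of reads (not always whole numbers), TPM and FPKM, with lower and upper TPM bounds. The deposited transcript tables hold the expected count, TPM and percent of the gene's TPM per transcript, and those of the second program an estimated count and TPM. For neither program is a name or version given in the sources used here. The text deposited beside the tables names mm10 and annotation M21. The gene tables also hold 26345 records that name no gene, with 9 and 6.49 reads (2.31e-05% and 1.64e-05%), which stayed out of all steps.

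Second-program values were summed per gene. Expected counts were rounded, scaled by TMM in edgeR 4.0.16 (R 4.3.3; factors 1.00 and 0.995) and compared by an exact conditional binomial test (two-sided) over genes averaging at least 50 reads, with p-values adjusted by Benjamini-Hochberg, a prior count of 0.5, and calls at an adjusted p under 0.05 and 2-fold. The test covers counting error only, since it holds no term for variation between libraries. Reads with no molecular identifier may also be copies of 1 molecule, for which the test makes no allowance. Programs were compared as log2 of TPM plus 0.5 over genes of at least 1 TPM, and called at 2-fold in both libraries. The function estimateDisp of edgeR gave the coefficient of variation. Transcripts were classed by biotype and annotated coding length. Coding sequences were aligned with Biopython 1.88, and stretches of 31 bases were counted over all M21 transcripts. Other steps used Python 3.11.15, scipy 1.17.1 and pandas 2.3.3. The call at an adjusted p under 0.05 and 2-fold was checked on simulated data that held counting error only. That check does not cover variation between libraries or the calls made without the 2-fold minimum.

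The members and lists were chosen with earlier results of these data known. Named were all members, their transcripts with at least 5% of a gene's TPM in either library or program, the 3 highest and the lowest of each receptor or partner list, and list genes past 2-fold. 1 gene that this rule takes is not reported here. The form of 893 codons was added to complete its set, and C1ql2, C1ql3 and Nrxn3 were chosen after their values were seen. The thalamus markers Tcf7l2 and Ntng1 also fall outside this rule. Alternatives were relative log expression (DESeq2 1.42.0), library totals, other count and TPM minimums, other priors and pseudocounts, FPKM, a preset dispersion in exactTest, the second program, coding transcripts only and leaving out each library; the full-length class was chosen after seeing the data. Base-level editing was not analysed here.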

Additional observations from a re-analysis of the deposited data

How the results depend on the processing

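The counts of 0 members past 2-fold between the libraries and 3 beyond counting error stayed the same under every alternative run on them. So did the count of 0 past 2-fold between the programs, although the TPM minimum of 5 leaves out the members below it. The prior count of 2 and the preset dispersion of 0.01 were run for the 2-fold count only. Whether the 3 calls hold under a dispersion was not tested. Over all genes, the number past 2-fold was 339 of 14078, against 736 of 17300 with a mean count of at least 10 and 909 of 26683 with no minimum. The share of Grik4 and Grik5, 47.2% of gene TPM, was 45.8% in the second program, 46.4% over protein-coding transcripts, 59.6% over full-length transcripts and 57.7% over those in the second program. The share of Neto1 in Neto TPM, 86.0%, was 88.5% in expected counts, 87.02% in the second program, 82.8% over full-length transcripts and 82.6% over those in the second program. The log2 ratio of Grik2 between the libraries, 0.01, turned to -0.0425 with the second program's counts, neither being past the threshold. The cause was not tested. Of 21 alternatives for the members' ratios, 20 kept their side. The full-length set was identical with a minimum of 50% in place of 80%. With 1 library left out the share of Grik4 and Grik5 was 46.7% to 47.6% and that of Neto1 85.5% to 86.4%. No paired analysis was possible because the series holds 1 group. With 2 libraries no outlier could be tested. The forms of Grik1 rest on 217 and 232 reads for the gene and share nearly all of their sequence, and these limits were not weighed against each other.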
